A study of Mus musculus with 8 samples.

Results

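Nucleosome remodelling and bromodomain genes were followed in the aged mouse brain. The set held every protein-coding gene whose symbol marks it as a CHD helicase (Chd), a SWI/SNF or ISWI subunit (Smarc), an AT-rich interaction domain protein (Arid), an INO80 subunit (Ino80), a bromodomain protein (Brd) or a bromodomain protein beside a zinc finger (Baz and Bptf). The symbols were taken from the GENCODE annotation, where 56 genes matched and 3 of them (a long noncoding RNA and a pair of pseudogenes) were not protein coding. The remaining 53 genes were all present among the 22430 listed genes and all had enough counts to be tested, as did 16730 genes in total. Brd3os and Brd8dc match by name only: they are the neighbours of Brd3 and Brd8 and are not known as remodellers.

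Poly(A) RNA was sequenced from the brains of 8 male C57Bl/6JRj mice. Young adults were 6 months old (6m, 4 mice) and aged animals 24 months old (24m, 4 mice), and each mouse gave its own library, with no treatment or allele named for either group. The labels name the tissue as whole brain and the methods of the study name whole hemispheres, so all cell types of the brain were pooled in a library. The deposited values are read counts per gene, and levels below are counts per 1e+06 counts (CPM) after scaling with trimmed-mean-of-M-values factors. A gene was called when the adjusted p of edgeR was at most 0.05 and the base-2 logarithm of the fold change of 24m over 6m (log2FC) was at least 0.58 in size.

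Remodellers are enzymes that use ATP to slide, eject or exchange nucleosomes, and they fall into the SWI/SNF (BAF in mammals), ISWI, CHD and INO80 classes. Each ATPase works inside a complex whose other subunits bind DNA or modified histones, and the choice between paralogous subunits defines the form of the complex. In the brain, neural progenitors and neurons are known to assemble BAF from different subunits. Bromodomains bind acetylated lysines, and BET proteins such as Brd2 and Brd3 use them to link acetylated chromatin to transcription.

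The promoter windows of RefSeq (GRCm38.p6, 250 bases before to 50 after a start) held 38 of the 53 genes in 48 windows. Counted per gene, with the window richest in CG pairs, the median was 29 pairs in 300 bases against 8 over 27025 genes. The letters GGGCGG were present on either strand, in any window of the gene, for 86.8% of the 38 genes against 38.2% of all genes. The number of CG pairs had a median of 33 (7 to 48) in the 9 of these genes that were called higher and of 31 (12 to 46) in the 7 called lower. CCAAT, searched in the same way, was present for 34.2% of the 38 genes and 41.1% of all genes. The 120 bases before the start are shown for a pair of genes that fell (Brd3, Smarcd3) and a pair that rose (Smarcc2, Baz2a), with CG pairs in capitals. They are Brd3 at chr2:27475399-27475518 (minus strand), Smarcd3 at chr5:24602003-24602122 (minus strand), Smarcc2 at chr10:128459116-128459235 (plus strand) and Baz2a at chr10:128092663-128092782 (plus strand).
Brd3: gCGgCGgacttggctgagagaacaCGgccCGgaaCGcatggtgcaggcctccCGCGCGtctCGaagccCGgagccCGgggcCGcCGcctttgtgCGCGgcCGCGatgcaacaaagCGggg
Smarcd3: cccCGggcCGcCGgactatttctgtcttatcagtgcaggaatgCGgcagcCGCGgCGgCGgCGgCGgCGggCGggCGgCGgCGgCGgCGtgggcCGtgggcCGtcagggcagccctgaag
Smarcc2: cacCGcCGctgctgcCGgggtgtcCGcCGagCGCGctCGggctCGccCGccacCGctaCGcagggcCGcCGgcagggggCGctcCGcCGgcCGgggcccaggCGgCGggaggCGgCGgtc
Baz2a: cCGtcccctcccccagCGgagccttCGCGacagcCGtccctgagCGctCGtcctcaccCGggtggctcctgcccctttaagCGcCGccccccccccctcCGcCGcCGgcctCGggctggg
The Brd3 and Smarcd3 stretches hold 18 and 19 CG pairs, and those of Smarcc2 and Baz2a hold 22 and 14.

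Library totals were 63460940 to 103462414 counts, the deepest being 24m replicate 1. The summed level of the 53 genes was 3698 to 3932 CPM in 6m and 3266 to 4235 CPM in 24m, and its lowest and highest values both belonged to aged animals, 24m replicate 1 and 24m replicate 4. That pair of libraries also bounded the genes that rose: 24m replicate 1 was the lowest 24m library for 14 of the 14 genes called higher, and 24m replicate 4 the highest for 13 of them. Among the 27 genes not called, the same libraries were lowest and highest in 17 genes each. Haemoglobin and erythroid genes fell at 24m (4 of 4 called lower, summed level 4004 to 5626 CPM in 6m and 899.7 to 3076 CPM in 24m, the highest 24m value again in replicate 1), 5 of 8 astrocyte markers rose and 1 fell, and 2 of 8 pan-neuronal markers rose and 1 fell. Among the other markers, calls were made for microglia (2 of 8 higher), oligodendrocytes (1 of 8 higher), their precursors (2 of 5 higher), endothelium (1 higher and 2 lower of 8), progenitors (3 higher and 1 lower of 6) and choroid plexus (1 of 4 higher). Moreover, 3 of 3 tested muscle and liver genes, not expected in brain, were lower. All these marker counts are to be read against the 25.3% of all genes tested that were higher and the 18.3% that were lower. The part of the marker changes in the results was not tested, and in bulk tissue fewer cells of a type cannot be told apart from less RNA per cell.

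Remodeller genes changed in both directions at 24m. Of the 53 genes, 26 were called in either direction (49.1%, against 43.6% of all genes tested), 14 of them higher (26.4%, against 25.3%) and 12 lower (22.6%, against 18.3%), and the median log2FC was 0.01 against -0.0034 over all genes. By the adjusted p alone 19 were higher and 17 lower, where 32.7% and 29.9% of all genes were. The shares are close to the background, and no test of the set as a whole was made. The families had unequal splits: 5 of 10 Chd genes rose and 0 fell, whereas 6 of 10 Brd genes fell and 2 rose. Without Brd3os and Brd8dc, 4 of 8 Brd genes fell and 2 rose. Of the 13 Smarc genes only Smarcc2 rose and only Smarcd3 fell. Among 10 Arid genes 4 rose and 2 fell, among 5 Ino80 genes 1 rose and 2 fell, and among the 5 Baz and Bptf genes 1 rose and 1 fell. The libraries of both ages did not overlap for 29 of the 53 genes (54.7%), against 55.2% of all genes tested. Without 24m replicate 1 the counts were 17 higher and 12 lower (against 27.8% and 21.9% of all genes tested), of which 5 higher were Chd genes and 6 lower were Brd genes. Without 24m replicate 4 they were 9 and 10 (against 23% and 15.7%), of which 2 higher were Chd genes and 5 lower were Brd genes. Without 6m replicate 4 they were 9 and 10 (against 23.7% and 16.9%), with 3 Chd genes higher and 5 Brd genes lower. Scaling by library totals alone left 5 Chd genes higher and 0 lower but 2 Brd genes higher and 3 lower. Under that scaling 32.6% of all genes tested were higher and 10.4% lower. With a trend over exonic length removed, 1 Chd gene was higher and 2 were lower, and 0 Brd genes were higher and 5 lower.

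**Figure D1:**
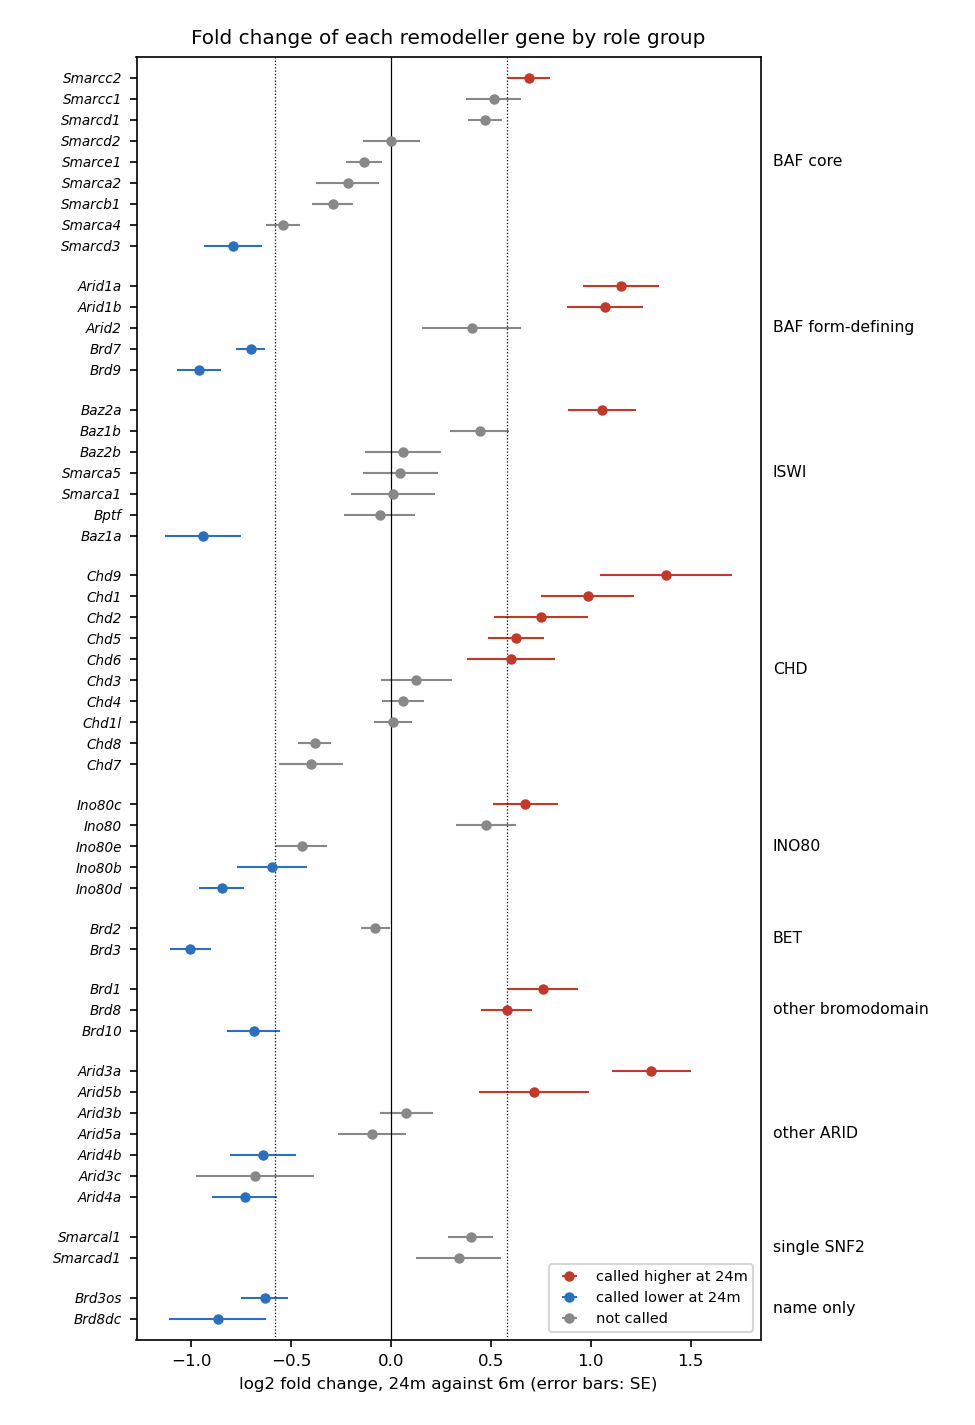
Log2FC of 24m over 6m for 52 of the genes, grouped by role, with the standard error as bars and the threshold of 0.58 as dotted lines (4 libraries per age). The 14 genes called higher reach 1.38 in Chd9 and the 12 called lower reach -1.01 in Brd3, and each role group of more than 3 genes holds fold changes of both signs.

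Exonic length moved with the fold changes. Over 16677 genes the Spearman correlation of log2FC with exonic length was 0.42, and over the 53 genes it was 0.28, both given as descriptions across genes that share libraries. The genes called higher had a median exonic length of 11969 bases, those not called 9215 bases and those called lower 7612.5 bases, all above the 5768 bases of all genes tested. When a smooth trend over length was removed from each library, 4 genes stayed past the thresholds upward (Arid1a, Arid3a, Chd9 and Ino80c) and 17 were lower, of which 9 were among the 12 called before. These are 7.55% and 32.1% of the set, where the same correction left 21.3% of all genes tested higher and 17.2% lower. This correction took the median of the 53 genes to -0.20 and that of all genes to -0.03. All 9 became larger in size, from -0.75 in Brd7 to -1.40 in Ino80d, and by over 1.5 times in Arid4b, Brd10 and Ino80d. The other 8 genes called lower after it included Smarca4, Smarca2, Smarcb1, Bptf, Chd7, Chd8 and Ino80e, with values of -0.59 (Bptf) to -0.94 (Chd8). Genes of the set that are described below and whose call it ends are given with both values. The part of length in the changes was not tested further.

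**Figure D2:**
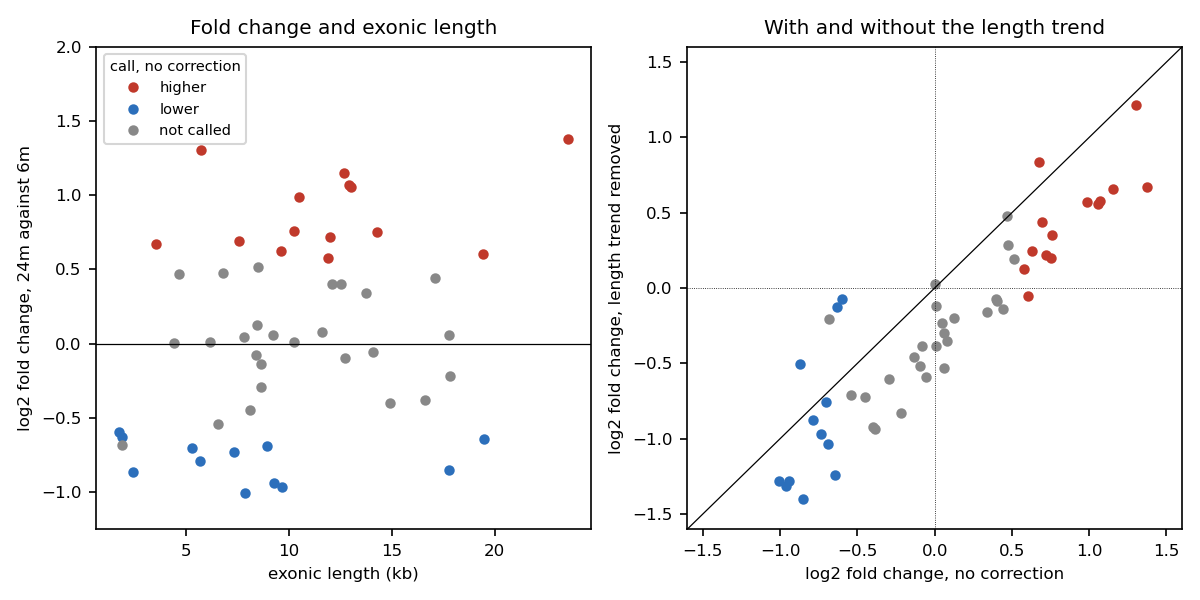
Left, log2FC of 24m over 6m against exonic length in kilobases for 52 of the genes, coloured by call. Right, the log2FC without (horizontal) and with (vertical) removal of the length trend, where most genes lie below the diagonal and the 4 upward calls that remain are Arid1a, Arid3a, Chd9 and Ino80c.

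Of the 9 BAF core genes, Smarcc2 rose, Smarcd3 fell and 7 were not called. BAF is built around the ATPase Smarca4 or Smarca2, a scaffold of Smarcc1 and Smarcc2, a Smarcd subunit, and Smarcb1 and Smarce1. Smarcd3 (ENSMUSG00000028949, GRCm39 chr5:24795816-24829409), a Smarcd paralog found in the neuronal and progenitor forms of BAF, had 317, 286, 298 and 339 CPM in the 6m libraries and 237, 166, 172 and 143 CPM in the 24m libraries. The ages did not overlap, and the level fell by 0.79 ± 0.15 on the log2 scale (± is the SE for log2FC and the SD for CPM throughout, n = 4 per age, edgeR adjusted p = 0.00128). Smarcd1 (ENSMUSG00000023018), the broadly expressed paralog, went the other way without overlap, from 110 ± 8.46 CPM (SD, n = 4) to 153 ± 10.02 CPM, but its log2FC of 0.47 ± 0.08 stayed under the threshold. It passed the threshold with a GC trend removed (0.62), after quantile normalization (0.58) and when libraries were scaled by their totals alone (0.69). Smarcd2 stood at 29.7 ± 2.84 and 29.8 ± 6.20 CPM.

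Smarcc2 (ENSMUSG00000025369, chr10:128294424-128326456), the more abundant scaffold gene, had 199, 234, 234 and 237 CPM in 6m and 309, 358, 382 and 414 CPM in 24m. All 24m libraries lay above all 6m libraries, with a log2FC of 0.69 ± 0.11 (adjusted p = 0.000517, n = 4 per age). With the length trend removed the value was 0.44. Its paralog Smarcc1 had a log2FC of 0.52 ± 0.14 (adjusted p = 0.00887), just outside the threshold, and was a call at 0.63 without 24m replicate 1. The main ATPase gene Smarca4 (ENSMUSG00000032187, chr9:21527398-21615526) was lower in every 24m library, at 349 to 441 CPM in 6m and 267 to 279 CPM in 24m. Its log2FC of -0.54 ± 0.09 (adjusted p = 0.000608) was also just outside, and was a call at -0.60 without 6m replicate 2. Smarca2, the alternative ATPase, overlapped between ages (204 ± 20.4 and 176 ± 40.8 CPM, log2FC -0.22 ± 0.16). Smarcb1 and Smarce1 had log2FC values of -0.29 ± 0.10 and -0.14 ± 0.09, with overlapping libraries.

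**Figure D3:**
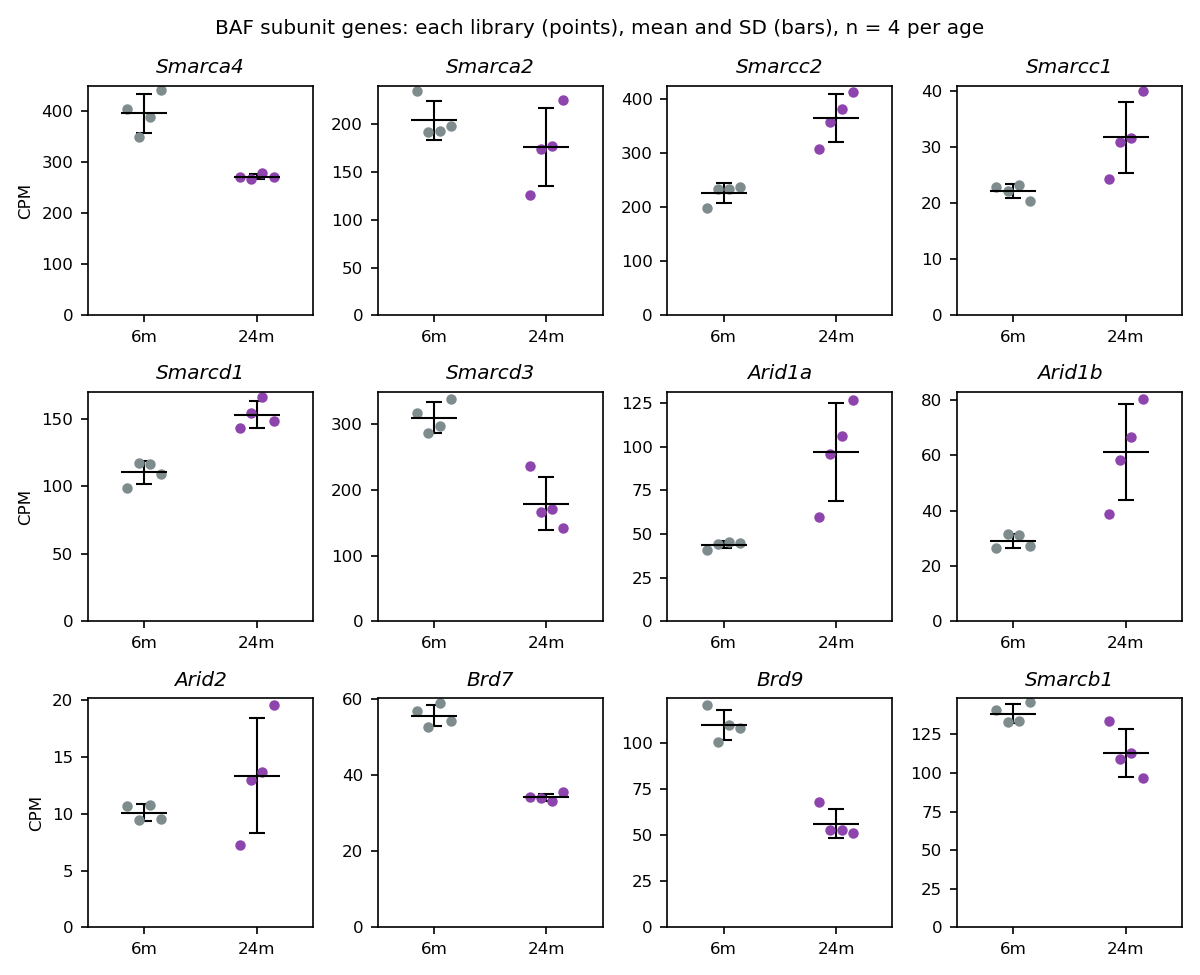
Level in CPM of 12 BAF subunit genes in each library (points), with the mean and SD as bars, 4 libraries per age. Smarca4, Smarcd3, Brd7 and Brd9 lie lower in all 24m libraries, Smarcc1, Smarcc2, Smarcd1, Arid1a and Arid1b higher, and Smarca2, Smarcb1 and Arid2 overlap.

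Of the 5 subunits that define a BAF form, 2 rose and 2 fell. Arid1a and Arid1b, large DNA-binding subunits of canonical BAF that exclude each other, both rose. Arid1a (ENSMUSG00000007880, chr4:133406304-133484080) had 40.8, 44.2, 45.3 and 44.7 CPM in 6m and 59.9, 95.95, 106 and 127 CPM in 24m, a log2FC of 1.15 ± 0.19 (adjusted p = 0.000735). Arid1b (ENSMUSG00000069729, chr17:5044607-5397931) had 26.4, 31.5, 31.1 and 27.2 CPM in 6m and 38.9, 58.4, 66.8 and 80.2 CPM in 24m, a log2FC of 1.07 ± 0.19 (adjusted p = 0.00109). For both, every 24m library exceeded every 6m library and 24m replicate 1 was the lowest of its age. With the length trend removed, Arid1a kept 0.66, and Arid1b at 0.58 was at the threshold and no longer called.

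The bromodomain subunits Brd9 and Brd7 fell. Brd9 (ENSMUSG00000057649, chr13:74085904-74109932), the defining subunit of non-canonical BAF, had 121, 101, 110 and 108 CPM in 6m and 68.3, 52.9, 53.1 and 51.2 CPM in 24m. The log2FC was -0.96 ± 0.11 (adjusted p = 0.000116), and the ages were far apart. Brd7 (ENSMUSG00000031660, chr8:89057667-89088875), a subunit of the polybromo form, had 56.8, 52.7, 59.0 and 54.1 CPM in 6m and 34.2, 33.9, 33.2 and 35.5 CPM in 24m, a log2FC of -0.70 ± 0.07 (adjusted p = 8.07e-05). Its 24m libraries lay close together, all below the young ones. Scaling by library totals alone took it to -0.48. Arid2, which belongs to the polybromo form as well, overlapped between ages (log2FC 0.40 ± 0.25, adjusted p = 0.176). It ranged from 0.16 to 0.62 with a library left out, and was a call at 0.62 without 24m replicate 1.

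BAF subunits outside the symbol families were read from a list of 17 genes, of which 5 rose and 2 fell (median log2FC 0.03). Of all genes tested 25.3% were higher and 18.3% lower, the background against which this and each list below is to be read. Pbrm1, the polybromo protein itself, fell from 29.1 ± 5.37 to 14.4 ± 2.13 CPM (log2FC -1.02 ± 0.15, adjusted p = 0.000409). Bicra and Bicral, partners of Brd9 in non-canonical BAF, rose by log2 values of 1.05 ± 0.22 and 1.57 ± 0.30, and Bcl7a by 1.83 ± 0.17 (adjusted p = 0.00273, 0.00145 and 4.38e-05). Of 5 genes listed for the neuronal form, Smarcd3 fell, Ss18l1 rose (log2FC 1.504 ± 0.29) and Actl6b, Dpf1 and Dpf3 were not called. Smarcd3 is found in both forms although it is listed for this form only, so its fall is not particular to the neuronal form. Of 4 genes listed for the progenitor form, Ss18 rose (1.04 ± 0.18) and Actl6a, Dpf2 and Phf10 were not called. The Actl6 paralogs had the same sign, at -0.38 ± 0.11 for the neuronal Actl6b and -0.25 ± 0.08 for Actl6a.

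The highest fold change of the 53 genes was that of a CHD gene. CHD proteins pair a chromodomain, which binds methylated histone tails, with the helicase motor. Chd9 (ENSMUSG00000056608, chr8:91554934-91781527) had 4.69, 5.36, 5.14 and 2.30 CPM in 6m and 5.63, 12.8, 11.7 and 15.3 CPM in 24m. The log2FC was 1.38 ± 0.33 (adjusted p = 0.00523) and 0.67 with the length trend removed. The ages were separated narrowly, between 5.36 CPM in 6m replicate 2 and 5.63 CPM in 24m replicate 1. Chd1 (ENSMUSG00000023852, chr17:15925164-15992874), which acts with the elongating polymerase, had 3.29, 3.42, 3.55 and 2.04 CPM in 6m and 4.00, 6.75, 5.92 and 7.73 CPM in 24m. Its log2FC of 0.99 ± 0.23 (adjusted p = 0.00477) became 0.57 with the length trend removed.

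Chd2, the paralog of Chd1, had 11.3, 10.7, 10.9 and 9.23 CPM in 6m and 9.62, 18.8, 18.1 and 24.6 CPM in 24m. Here 24m replicate 1 lay within the young range, and the log2FC was 0.75 ± 0.24 (adjusted p = 0.019). The call was lost in 6 of 18 alternatives: the value was 0.55 without 24m replicate 4, 0.69 without 6m replicate 4 (adjusted p = 0.056), 0.67 with limma-voom (adjusted p = 0.0528), 0.50 after quantile normalization, 0.48 with a GC trend removed and 0.20 with the length trend removed. Chd6 had 25.9, 22.9, 24.1 and 19.7 CPM in 6m and 21.1, 34.1, 35.3 and 49.96 CPM in 24m, again with 24m replicate 1 inside the young range. Its log2FC was 0.60 ± 0.22 (adjusted p = 0.0361). The call was lost in 12 of 18 alternatives, among them the omission of any single library but 24m replicate 1, with values of 0.38 (24m replicate 4 omitted) to 0.66 (6m replicate 1 omitted). Its sign turned when the length trend was removed, to -0.055.

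Chd3, Chd4 and Chd5 are the alternative ATPases of the NuRD complex, which joins remodelling to histone deacetylation. Chd5 (ENSMUSG00000005045, chr4:152423077-152474651), the neuronal paralog, had 130, 134, 131 and 140 CPM in 6m and 149, 207, 220 and 252 CPM in 24m, with no overlap. The log2FC was 0.63 ± 0.14 (adjusted p = 0.00349), 0.52 without 24m replicate 4 and 0.24 with the length trend removed. Chd4 had 193 to 198 CPM in 6m and 172 to 246 CPM in 24m (log2FC 0.06 ± 0.11). Chd3, with the highest level per length of the 53 genes (66.0 CPM per kilobase of exon in 6m and 72.0 in 24m), had 515 to 597 CPM in 6m and 391.6 to 767 CPM in 24m (0.13 ± 0.18). For both genes 24m replicate 1 was the lowest and 24m replicate 4 the highest library of all. Of 12 further NuRD subunits 3 rose and 2 fell, against 25.3% and 18.3% of all genes tested: Gatad2b rose from 1.59 ± 0.321 to 13.7 ± 6.55 CPM (3.10 ± 0.36, adjusted p = 0.000131) and Mta3 by 1.28 ± 0.09, whereas the methyl-CpG-binding subunit Mbd3 had a log2FC of -0.76 ± 0.15 (adjusted p = 0.00177).

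Chd7 and Chd8, known from neurodevelopmental disorders, were not called. Chd8 (128, 116, 120 and 121 CPM in 6m, then 87.2, 89.5, 89.3 and 106 CPM in 24m) was lower in every 24m library, with a log2FC of -0.38 ± 0.08 (adjusted p = 0.00336). Chd7, the family's lowest fold change, had 60.9, 34.4, 38.6 and 43.0 CPM in 6m and 33.0, 34.2, 31.6 and 35.1 CPM in 24m (-0.40 ± 0.16, adjusted p = 0.0504). Omission of a single library gave -0.50 to -0.21 for Chd7 and -0.45 to -0.34 for Chd8. With the length trend removed both passed the threshold downward, at -0.92 for Chd7 and -0.94 for Chd8. Chd1l, a related ATPase of DNA repair, had a log2FC of 0.01 ± 0.09.

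**Figure D4:**
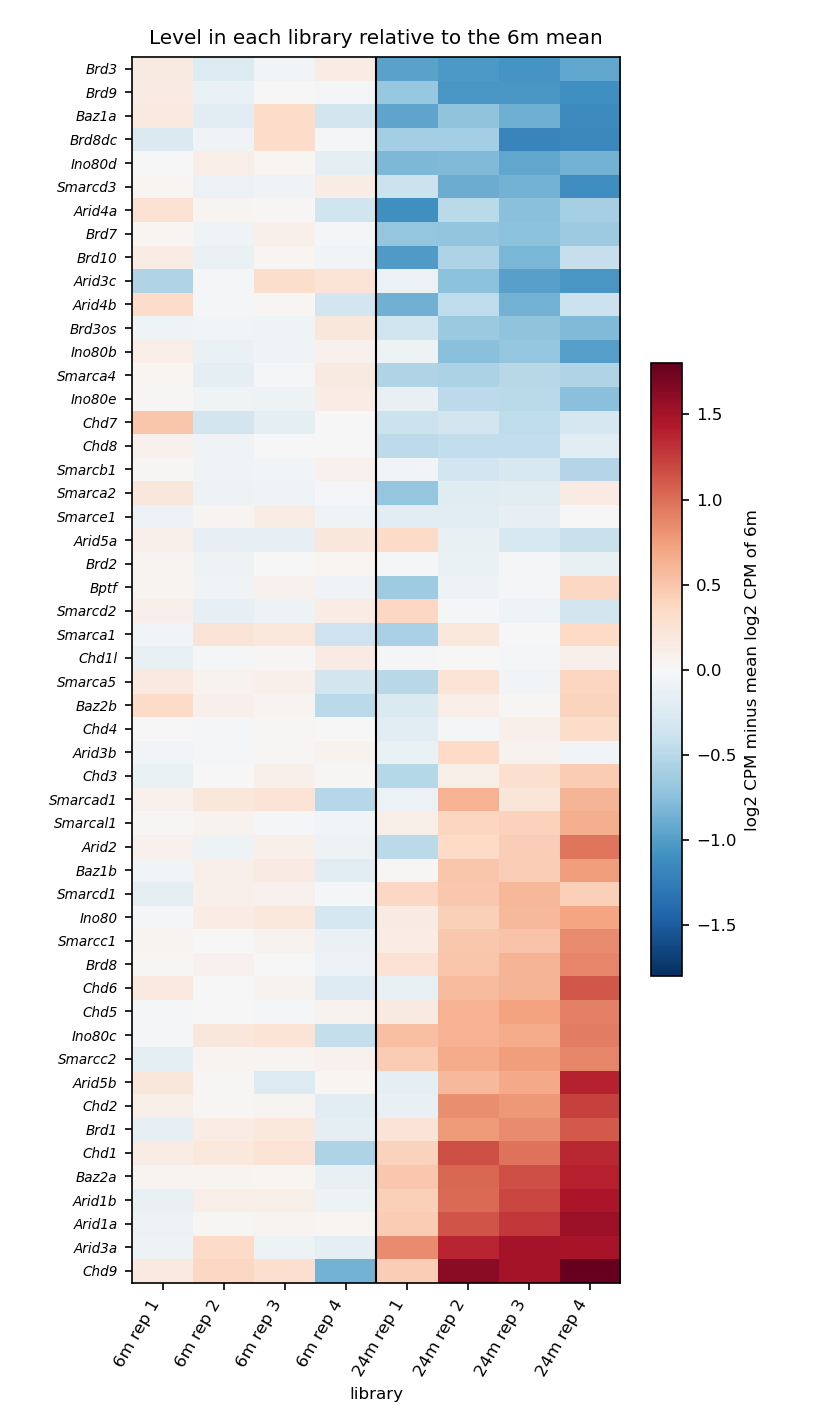
Level of 52 of the genes in each library as log2 CPM minus the mean of the 6m libraries, genes ordered by fold change. The genes called higher are palest in 24m replicate 1 and darkest in 24m replicate 4, with median differences of 0.42, 0.80, 0.82 and 1.29 in 24m replicates 1 to 4, whereas the genes called lower have medians of -0.75, -0.71, -0.85 and -0.89.

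The Brd family gave 6 of the 12 genes that fell. Brd3 (ENSMUSG00000026918, chr2:27335587-27397674), a BET protein, had 70.6, 53.3, 61.4 and 69.5 CPM in 6m and 32.3, 30.97, 30.4 and 33.1 CPM in 24m. The lowest young library lay well above the highest aged one, and the log2FC of -1.01 ± 0.10 (adjusted p = 6.95e-05) was the lowest of the 53 genes. Brd2, its paralog, had 249 to 274 CPM in 6m and 240 to 260 CPM in 24m (-0.08 ± 0.07, adjusted p = 0.364). Per length, Brd2 lay above Brd3 at both ages, with 31.4 and 8.08 CPM per kilobase in 6m and 29.7 and 4.02 in 24m. Of 6 genes of the elongation kinase P-TEFb and its regulators, Aff4 rose (3.18 ± 0.44, adjusted p = 0.000291), Larp7 fell (-1.42 ± 0.13, adjusted p = 4.58e-05) and Cdk9, Ccnt1, Ccnt2 and Hexim1 were not called.

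Among the other bromodomain genes, Brd10 (ENSMUSG00000046138, chr19:29691802-29783994) had 47.4, 39.7, 44.4 and 41.8 CPM in 6m and 21.4, 29.3, 24.5 and 32.4 CPM in 24m, a log2FC of -0.69 ± 0.13 (adjusted p = 0.00164). It was -0.46 with library totals alone and -1.03 with the length trend removed. Brd1 (ENSMUSG00000022387, chr15:88571232-88618518), a scaffold of histone acetyltransferase complexes and the highest of the family, had 24.1, 29.2, 30.4 and 23.8 CPM in 6m and 31.2, 45.4, 48.3 and 57.3 CPM in 24m. The log2FC was 0.76 ± 0.17 (adjusted p = 0.00394) and 0.35 with the length trend removed. Brd8, a subunit of the TIP60 acetyltransferase complex, had 23.3, 24.3, 23.3 and 21.4 CPM in 6m and 27.5, 32.7, 35.3 and 42.4 CPM in 24m. All aged libraries were higher, but its log2FC of 0.58 ± 0.13 (adjusted p = 0.00325) sat on the threshold and 11 of 18 alternatives took it below, down to 0.13 with the length trend removed. Omission of 24m replicate 3 gave 0.57, of 24m replicate 4 0.47 and of 6m replicate 4 0.55.

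The neighbours that share only the name fell too. Brd3os had 23.9, 24.3, 23.8 and 28.8 CPM in 6m and 19.6, 15.8, 15.2 and 14.5 CPM in 24m (log2FC -0.63 ± 0.12, adjusted p = 0.00138). With the length trend removed it was -0.13, with a GC trend removed -0.50 and with library totals alone -0.42. Without 24m replicate 4 or 6m replicate 4 it was -0.58 and -0.56, and none of these values was a call. Brd8dc lay under 1 CPM at both ages (0.387 ± 0.0678 and 0.210 ± 0.0464 CPM, -0.87 ± 0.24, adjusted p = 0.0112), and its value was -0.50 with the length trend removed, not a call.

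On a list of 21 bromodomain genes outside these families, 11 rose and 1 fell (against 25.3% and 18.3% of all genes tested), with a median log2FC of 0.94. The median was -0.58 in the 8 Brd genes left after Brd3os and Brd8dc are set aside, and the difference between the lists was not tested. The acetyltransferase Ep300 rose from 10.2 ± 2.09 to 29.3 ± 12.8 CPM (1.52 ± 0.33, adjusted p = 0.00297), and its paralog Crebbp was at -0.57 ± 0.18 (adjusted p = 0.0181), not a call. Ash1l, a histone methyltransferase, rose by 1.89 ± 0.37 and Trim66 by 2.96 ± 0.28 (adjusted p = 0.00184 and 4.93e-05). Phip fell, at -1.47 ± 0.13 (adjusted p = 4.32e-05). Their median exonic length was 13292 bases, and with the length trend removed 9 were higher and 2 lower, with a median of 0.35.

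ISWI remodellers space nucleosomes and are built from Smarca1 or Smarca5 with a large partner that directs them. The ATPases overlapped between ages and were not called: Smarca5 had 14.8 to 20.8 CPM in 6m and 13.0 to 24.1 CPM in 24m (0.05 ± 0.19), and Smarca1 had 4.28 to 6.49 and 3.70 to 7.10 CPM (0.01 ± 0.21). The partners moved in opposite directions. Baz2a (ENSMUSG00000040054, chr10:127927020-127965172), which guides ISWI to silent ribosomal DNA, had 18.2, 18.1, 18.0 and 15.9 CPM in 6m and 24.6, 36.0, 39.0 and 46.4 CPM in 24m. It rose without overlap (1.06 ± 0.17, adjusted p = 0.000629), and stood at 0.56 with the length trend removed. Baz1a (ENSMUSG00000035021, chr12:54939053-55061139), the partner in the ACF and CHRAC complexes, had 1.88, 1.46, 2.09 and 1.32 CPM in 6m and 0.859, 0.999, 0.901 and 0.745 CPM in 24m, lower in every aged library (-0.94 ± 0.19, adjusted p = 0.00213). Of 5 further ISWI partner genes 1 rose and 1 fell. Cecr2, the one that rose, had overlapping libraries (0.78 ± 0.27, adjusted p = 0.0281) and was at 0.16 with the length trend removed. Chrac1, another CHRAC subunit, fell from 38.5 ± 2.20 to 24.5 ± 4.998 CPM (-0.65 ± 0.13, adjusted p = 0.00225, and -0.27 with the length trend removed), and Pole3, its histone-fold partner, stood at 14.98 ± 0.532 and 15.2 ± 0.907 CPM. Baz1b (0.44 ± 0.15), Baz2b (0.06 ± 0.19) and Bptf, the large subunit of NURF (-0.06 ± 0.18), overlapped between ages, and without 24m replicate 1 Bptf was at 0.11.

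Within INO80, which slides nucleosomes and is known for its action on the histone variant H2A.Z, 1 of 5 genes rose and 2 fell. Ino80d (ENSMUSG00000040865, chr1:62997577-63153849) had 4.62, 5.04, 4.76 and 4.16 CPM in 6m and 2.63, 2.68, 2.41 and 2.58 CPM in 24m, lower by a wide margin in every aged library (-0.85 ± 0.11, adjusted p = 0.00026). Ino80b had 71.2, 60.7, 62.8 and 69.4 CPM in 6m and 62.0, 39.0, 40.5 and 33.1 CPM in 24m. Its 24m replicate 1 lay in the young range, and the log2FC of -0.60 ± 0.18 (adjusted p = 0.0138) was -0.07 with the length trend removed. The call was lost in 9 of 18 alternatives, which included the removal of a GC trend (-0.43), quantile normalization (-0.57) and library totals alone (-0.39). It was also lost on omission of any 24m library other than replicate 1 (-0.55, -0.56 and -0.48 without replicates 2, 3 and 4) and of 6m replicates 1 and 4 (-0.56 and -0.57). Ino80e was lower in all aged libraries (86.4 ± 6.39 to 63.3 ± 11.4 CPM) at -0.45 ± 0.13, and Ino80 itself overlapped at 0.47 ± 0.15, and was a call at 0.58 without 24m replicate 1. Ino80c had 4.85, 5.71, 5.87 and 3.68 CPM in 6m and 7.18, 7.64, 7.84 and 9.39 CPM in 24m, higher in every aged library (0.67 ± 0.16, adjusted p = 0.00558) but no longer called without 6m replicate 4 (0.55), with a GC trend removed (0.48) or after quantile normalization (0.35).

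Of 23 partner genes of INO80 and the related SRCAP and TIP60 complexes, 5 rose and 2 fell, with a median log2FC of -0.27. The smaller subunits Znhit1 and Tfpt were the ones that fell (-1.02 ± 0.19 and -0.93 ± 0.16, adjusted p = 0.0015 and 0.00105). The shared AAA ATPases Ruvbl1 and Ruvbl2 had nearly the same value, -0.43 ± 0.09 and -0.43 ± 0.13, under the threshold. They differed with the length trend removed, at 0.04 for Ruvbl1 and -0.52 for Ruvbl2. Ep400, the large ATPase of the TIP60 complex, rose (0.65 ± 0.18, adjusted p = 0.0102), although its libraries overlapped, and stood at 0.11 with the length trend removed. Znhit1 stood at -0.53 after the same correction. Over the 57 subunit genes of the BAF, NuRD, ISWI and INO80-related lists, 14 rose and 7 fell (against 25.3% and 18.3% of all genes tested), with a median log2FC of -0.04. The other 40 listed genes, which are SNF2 ATPases, bromodomain genes and P-TEFb genes, held 16 that rose and 3 that fell.

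The remaining ARID proteins act outside BAF. Arid3a (ENSMUSG00000019564, chr10:79762533-79790852) had the family's highest fold change, with 0.777, 1.05, 0.780 and 0.741 CPM in 6m and 1.49, 2.15, 2.33 and 2.33 CPM in 24m (1.30 ± 0.20, adjusted p = 0.000485). It changed little with the length trend removed (1.21), its exons covering 5729 bases. Arid4a and Arid4b, subunits of the SIN3 deacetylase complex, fell together. Arid4a (ENSMUSG00000048118, chr12:71062144-71146121), the family's lowest, had 27.1, 23.1, 22.8 and 17.5 CPM in 6m and 10.4, 16, 13.3 and 14.8 CPM in 24m (-0.73 ± 0.16, adjusted p = 0.00348), and Arid4b had 23.3, 18.3, 19.0 and 14.6 CPM and 10.2, 13.5, 10.3 and 14.1 CPM (-0.64 ± 0.17, adjusted p = 0.00728). Arid4b went under the threshold when 24m replicate 1 (-0.56), 24m replicate 3 (-0.57) or 6m replicate 1 (-0.52) was omitted. With library totals alone, Arid4a and Arid4b were at -0.51 and -0.42, and with the length trend removed at -0.97 and -1.24.

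Arid5b had 5.52, 4.84, 4.01 and 4.89 CPM in 6m and 4.29, 7.19, 7.70 and 12.5 CPM in 24m. The aged libraries spread from within the young range to above it, and the log2FC of 0.72 ± 0.28 (adjusted p = 0.044) was no longer called in 12 of 18 alternatives. These included the omission of any library other than 24m replicate 1, with values of 0.41 without 24m replicate 4 to 0.79 without 6m replicate 1, and the removal of the length trend, with 0.22. Arid3b (0.08 ± 0.13) and Arid5a (-0.10 ± 0.17) overlapped between ages. Arid3c, under 1 CPM at both ages, was at -0.68 ± 0.30 (adjusted p = 0.0687), and at -0.93 and -0.83 without 24m replicate 1 and 6m replicate 1, when it was called. The SNF2 ATPases Smarcal1 and Smarcad1, which act in fork repair and heterochromatin, had log2FC values of 0.40 ± 0.11 and 0.34 ± 0.21, neither a call. Smarcal1 was a call at 0.63 with library totals alone, and Smarcad1 ranged from 0.20 to 0.48 with a library left out. Among 13 further SNF2 ATPases 4 rose and 1 fell: Ercc6, the Cockayne syndrome repair factor, rose by 1.63 ± 0.31 (adjusted p = 0.00147) and Hells fell, at -1.27 ± 0.31 (adjusted p = 0.00576) from under 1 CPM.

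Ratios of paralogs within a library do not depend on its scaling factor, so 17 pairs were compared that way, as log2 ratios of counts not divided by length. In 7 pairs (41.2%) the ratios of the ages did not overlap, against 52.6% of 137323878 pairs of tested protein-coding genes. Each of the 7 had the smallest two-sided p that 4 against 4 libraries allow (exact permutation p = 0.0286), and with adjustment over the 17 pairs this became 0.0694, so 0 pairs passed. The Smarcd3/Smarcd1 log2 ratio was 1.68, 1.29, 1.35 and 1.64 in the 6m libraries and 0.73, 0.11, 0.05 and -0.06 in the 24m libraries, a shift of -1.28 that took the counts ratio from 2.81 to 1.16. The Brd3/Brd2 log2 ratio was -1.96, -2.22, -2.10 and -1.97 in 6m and -3.01, -2.97, -3.08 and -2.86 in 24m, a shift of -0.92. Chd5/Chd4 went from a counts ratio of 0.682 to 1.00 (shift 0.56), so the counts of both NuRD ATPase genes were level in 24m. Baz1b/Baz1a shifted by 1.33, Baz2b/Baz2a by -0.95 and Chd6/Chd9 by -0.81.

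The ages overlapped in the other 10 pairs. Their largest shift was that of Arid5b/Arid5a at 0.74, with Smarca2/Smarca4 and Chd2/Chd1 at 0.30 and -0.30 and Brd9/Brd7 at -0.27. Arid1b/Arid1a was at -0.59 ± 0.10 in 6m and -0.67 ± 0.04 in 24m (SD, n = 4, exact permutation p = 0.286), although both genes rose. Arid4b/Arid4a, whose members both fell, was at -0.27 ± 0.05 and -0.17 ± 0.16 (exact permutation p = 0.343). Chd7/Chd8, Chd3/Chd4 and Smarca1/Smarca5 shifted by 0.02, 0.04 and -0.03. Without 24m replicate 1, 11 pairs (64.7%) did not overlap, against 69.7% of all gene pairs. With the length trend removed 8 (47.1%) did not, against 50.8%.

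**Figure D5:**
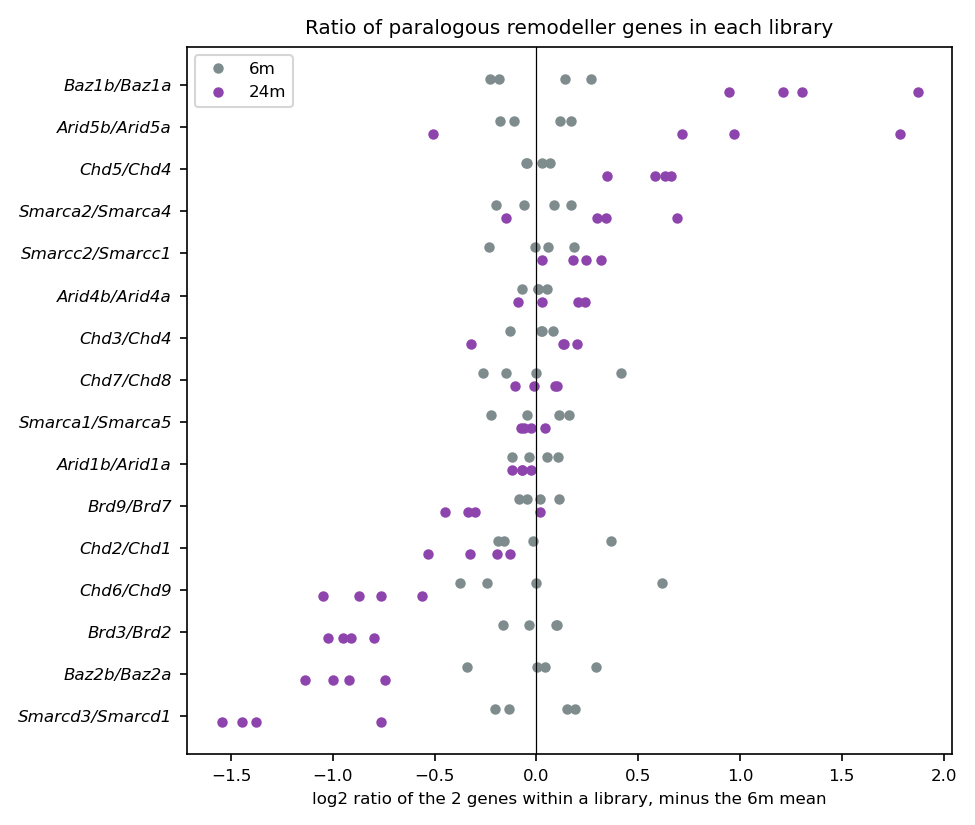
Log2 ratio of 16 paralogous pairs in each library, minus the 6m mean of the pair (grey, 6m, purple, 24m, 4 libraries each). The shifts run from -1.28 in Smarcd3/Smarcd1 to 1.33 in Baz1b/Baz1a, in both of which the ages do not overlap, and Arid1b/Arid1a and Chd7/Chd8 stay near 0.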

How the data were processed

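Poly(A) RNA of 8 male mouse brains (4 of 6m, 4 of 24m) was converted to strand-preserving libraries and read from both ends. The authors trimmed reads with Trim Galore 0.4.11, aligned them to GRCm39 with HISAT2 2.1.0 and deposited whole-number counts per Ensembl gene from featureCounts, not normalized. Use of strand and of multimapping reads was not given in the sources used here. The gene bodies of 43 of the 53 genes overlap a gene on the other strand and of 19 a gene on the same strand, so reads of such genes, and of close paralogs, may be divided differently. Each of the 8 columns matched its library by name.

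The 53 genes, the partner and marker lists, the paralog pairs and the tests were chosen with earlier results of these data known. Values in every library were given for called genes of at least 1 CPM and for the extremes of each family, and other genes by their fold change. The values of 1 gene are not reported here, although it stays in the counts and medians. Symbols, positions and exonic lengths (union of exons) came from GENCODE on GRCm39, a later release than the authors used, which matched 22281 of 22430 genes. Genes exceeding 5 counts in 4 or more libraries were fitted together (edgeR 4.0.16 in R 4.3.3, quasi-likelihood F test, TMM factors, age as the only term), with Benjamini-Hochberg adjustment over 16730 genes. Calls used thresholds of 0.05 for the adjusted p and 0.58 for the size of the log2FC. SEs are the log2FC divided by the root of F, and log2 ratios used a prior count of 2. Paralog ratios were compared by exact two-sided permutation over 70 assignments of libraries.

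Library totals of 63460940 to 103462414 counts make counting error small beside the spread of animals for genes with many counts. This does not hold for Brd8dc (14 to 29 counts per library) and Arid3c (14 to 32). Replicates differed by more than sampling noise (chi-square per degree of freedom 8.18 to 417 over 12 pairs), and each was counted. The alternatives were median-of-ratios factors, library totals alone, DESeq2 1.42.0 with and without quantile normalization, limma-voom (limma 3.58.1), other filters on low counts, the replicate number as a block, removal of length or GC trends (a smooth offset per library) and each library left out. Tested on simulated data for this comparison over 16730 genes, edgeR recovered 85% of 200 genes changed by a log2 value of 1, with 8 unchanged genes called, and 0 genes when none was changed. The simulation gave all genes the same dispersion and as many rises as falls. It therefore does not measure false calls in the real data, where 43.6% of genes were called and more rose than fell. Long-read data and a further cohort were not used here.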

Additional observations from a re-analysis of the deposited data

Results flagged for a closer look

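In 8 of 106 sets of 4 libraries (each gene at each age), a single library stood apart from the other three by Dixon's criterion; chance gives about 1 in 20. Most were in young animals. In 6m replicate 4, Brd3os was at 28.8 CPM (others 23.8 to 24.3), Chd1 at 2.04 CPM (3.29 to 3.55) and Baz2a at 15.9 CPM (18.0 to 18.2). In 6m replicate 1, Smarca2 was at 235 CPM (191 to 198) and Smarcc2 at 199 CPM (234 to 237). Arid3a was at 1.05 CPM in 6m replicate 2 (0.741 to 0.780). Among aged animals, Brd9 was at 68.3 CPM in 24m replicate 1 (51.2 to 53.1), and Chd8 was at 106 CPM in 24m replicate 4 (87.2 to 89.5). For Smarcc2, Chd1, Baz2a, Brd9, Brd3os, Arid3a and Chd8 the library that stood apart left the ages without overlap, and for Smarca2 the ages overlapped with it.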

How the results depend on the processing

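The count of 14 genes higher became 4 with the length trend removed and ranged from 9 to 17 with a library left out. Over all genes tested, 21.3% were higher with that trend removed and 23% to 27.8% with a library left out. The count of 12 lower became 6 with library totals alone, where 10.4% of all genes tested were lower. Library totals alone moved the median of all genes to 0.21, so that 75.7% of all called genes (58.1% with TMM factors) and 19 genes of the set were higher; on quantile-normalized counts with DESeq2 the share was 47.9%. Of the 97 listed genes outside the set (57 subunits of the complexes and 40 related genes), those called lower numbered 18 with the GC trend removed and 17 with the length trend removed, against 10. The shares of all genes tested that were lower were 20% and 17.2% in those fits, against 18.3% in the main fit. Paralog pairs without overlap numbered 7 to 11 with a library left out (41.2% to 64.7%, against 53.8% to 69.7% of all gene pairs). The call of 8 of the 26 called genes held in all 18 alternatives (Arid1a, Arid3a, Baz1a, Brd3, Brd9, Chd9, Ino80d, Smarcd3). With the replicate number as a block 11 genes were higher and 12 lower, against 24.6% and 18.7% of all genes tested. Libraries of the same number had correlated deviations of 0.271, 0.143, 0.078 and -0.348 for replicates 1 to 4. The best other number gave 0.015, 0.368, 0.33 and 0.377. These values do not settle whether the numbers pair the libraries. Signs turned in 18 genes, of which Chd6 alone was called. With the length trend removed the values were Chd6 -0.055, Baz1b -0.14, Arid2 -0.087, Smarcal1 -0.0697, Smarcad1 -0.16, Chd3 -0.20, Arid3b -0.35, Chd4 -0.30, Baz2b -0.53, Smarca5 -0.23, Chd1l -0.38 and Smarca1 -0.12. With the GC trend removed they were Smarca1 -0.28, Smarca5 -0.25, Baz2b -0.19, Chd1l -0.13, Arid5a 0.015 and Brd2 0.097, and after quantile normalization Smarca1 -0.35, Arid3b -0.26, Chd1l -0.22, Baz2b -0.21, Smarca5 -0.14, Smarcd2 -0.088, Smarcad1 -0.014 and Brd2 0.086. With library totals alone they were Smarca2 0.017, Smarce1 0.082, Arid5a 0.11, Brd2 0.14 and Bptf 0.18. Smarcd2, at 0.0023, was at -0.0043 with DESeq2, -0.0044 with median-of-ratios factors, -0.0058 with the filter of 1 CPM, -0.011 with limma-voom and -0.015 with the block, and Smarca1 at -0.023 with limma-voom and -0.013 with the block. With a library left out, the ranges were -0.23 to 0.11 for Bptf, -0.13 to 0.099 for Smarcd2, -0.12 to 0.18 for Smarca1, -0.032 to 0.061 for Chd1l, -0.081 to 0.20 for Smarca5, -0.078 to 0.18 for Baz2b, -0.041 to 0.15 for Chd4, -0.032 to 0.15 for Arid3b and -0.0034 to 0.30 for Chd3. The cause of these shifts was not tested. With 4 animals per age, genes near the threshold of 0.58 cannot be placed firmly on either side of it, and genes under 1 CPM rest on few counts.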
